A study of Mus musculus with 16 samples.

Results

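Ligands, receptors, Smad proteins and targets of the transforming growth factor beta (TGF-β) and activin pathway were followed in mouse primary neuronal cultures exposed to oxygen-glucose deprivation (OGD). The 10 genes were chosen by name for their roles: the ligands Inhba, Tgfb1, Tgfb2 and Tgfb3, the receptors Tgfbr1 and Tgfbr2, the signal transducers Smad3 and Smad7, and the matricellular targets Ctgf and Cyr61. They are 10 of the 53773 genes of the deposited table. Their values are FPKM, fragments per kilobase of transcript scaled to the depth of the library, summed over the 35 isoforms that these genes have in the table.

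The cultures were wild-type (wt) cortical neurons of mouse embryos at E15, 4 biological replicates in each of 4 groups, numbered 1 to 16. OGD withholds oxygen and glucose and is a cell culture model of ischemia. At 8 days in vitro all cultures received either vehicle, which the labels of these samples call untreated, or 10 μM of the antidepressant tianeptine (TIA). After 24 h they were subjected to 3 h of OGD or to sham, and RNA was taken at 6 h of reoxygenation. The groups were CONTROL-VEH (cultures 1 to 4), CONTROL-TIA (5 to 8), OGD-VEH (9 to 12) and OGD-TIA (13 to 16).

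TGF-β is secreted bound to a latency protein and has to be released before it can bind its receptor pair, in which the type II receptor activates the type I receptor. The activated type I receptor phosphorylates Smad2 and Smad3, which enter the nucleus with Smad4, while Smad7 inhibits the receptor. Activin A, a dimer of the Inhba product, uses its own receptors and the same Smads, and in neurons Inhba is known as an activity-dependent gene. Ctgf and Cyr61 encode secreted matricellular CCN proteins and are known targets of TGF-β and of the YAP-TEAD and SRF transcription factors.

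The promoters of 3 members are shown to set beside their values: Cyr61 with the largest log2 fold change after OGD, Smad3 with the most separate groups, and Inhba with the most negative one, which did not pass the test. Each sequence is the 250 bases before the start of the gene on its own strand, taken from RefSeq on GRCm38.p6. Capitals mark TATAAA, the TEAD motif GGAATG, the GC box GGGCGG and CAGACA, each searched on both strands, so that GGAATG can stand as CATTCC and GGGCGG as CCGCCC. No match overlapped another.
Cyr61, listed as Ccn1 (chr3:145649986-145650235, minus strand): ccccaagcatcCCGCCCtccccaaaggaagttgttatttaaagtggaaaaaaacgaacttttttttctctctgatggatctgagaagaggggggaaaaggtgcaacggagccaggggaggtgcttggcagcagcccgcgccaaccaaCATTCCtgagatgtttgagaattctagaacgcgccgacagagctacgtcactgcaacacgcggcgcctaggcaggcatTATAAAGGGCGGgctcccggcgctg
Smad3 (chr9:63757995-63758244, minus strand): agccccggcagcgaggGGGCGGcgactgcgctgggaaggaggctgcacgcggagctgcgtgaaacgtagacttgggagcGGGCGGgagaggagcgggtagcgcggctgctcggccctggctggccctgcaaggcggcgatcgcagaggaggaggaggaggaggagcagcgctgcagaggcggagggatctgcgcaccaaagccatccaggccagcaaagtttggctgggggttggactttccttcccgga
Inhba (chr13:16011601-16011850, plus strand): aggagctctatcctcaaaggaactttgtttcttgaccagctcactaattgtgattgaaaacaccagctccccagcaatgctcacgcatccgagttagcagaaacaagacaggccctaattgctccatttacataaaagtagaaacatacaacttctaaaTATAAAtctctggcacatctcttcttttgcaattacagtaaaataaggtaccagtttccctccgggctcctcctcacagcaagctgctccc
The Cyr61 promoter held a TEAD motif 103 to 98 bases before the start and TATAAA 25 to 20 bases before it. The Smad3 promoter held 2 GC boxes and no TATAAA, and the Inhba promoter held TATAAA 91 to 86 bases before the start. Over the 32851 promoters of the table, GGAATG was present in 12.6%, TATAAA in 12.4%, GGGCGG in 32.7% and CAGACA in 17.1%. The AP-1 motif TGANTCA (6.75% of promoters) and the CRE motif TGACGTCA (1.55%) were in none of the 8 promoter sequences found for 7 members. CAGACA was found for Tgfb2 and Tgfbr1, whose sequences are not shown. A match is a description of the letters and not a binding site. Ctgf, Tgfb3 and Smad7 had no entry. In the GRCm38 annotation the genes themselves span chr3:145646976-145649981 (Cyr61), chr9:63646767-63757994 (Smad3) and chr13:16011851-16031621 (Inhba), and Tgfbr2 spans chr9:116084293-116175360 on the minus strand.

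The depth of each culture, estimated from the FPKM that 1 read gives, was 17.7 to 24.2 M reads. Levels were therefore well covered for Tgfbr1, with an estimated 635 to 1240 reads per culture, but not for Tgfb1, with 3 to 27 reads, or Tgfbr2, with 19 to 146 reads. Neuron markers were abundant, with a mean over the 16 cultures of 777 FPKM for Tubb3 and 594 FPKM for Map2. Astrocyte transcripts were also present, with 382 FPKM for Slc1a3 and 24.6 FPKM for Gfap. The microglia marker Cx3cr1 reached at most 0.020 FPKM and the endothelial marker Cdh5 at most 0.017 FPKM.

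**Figure D1:**
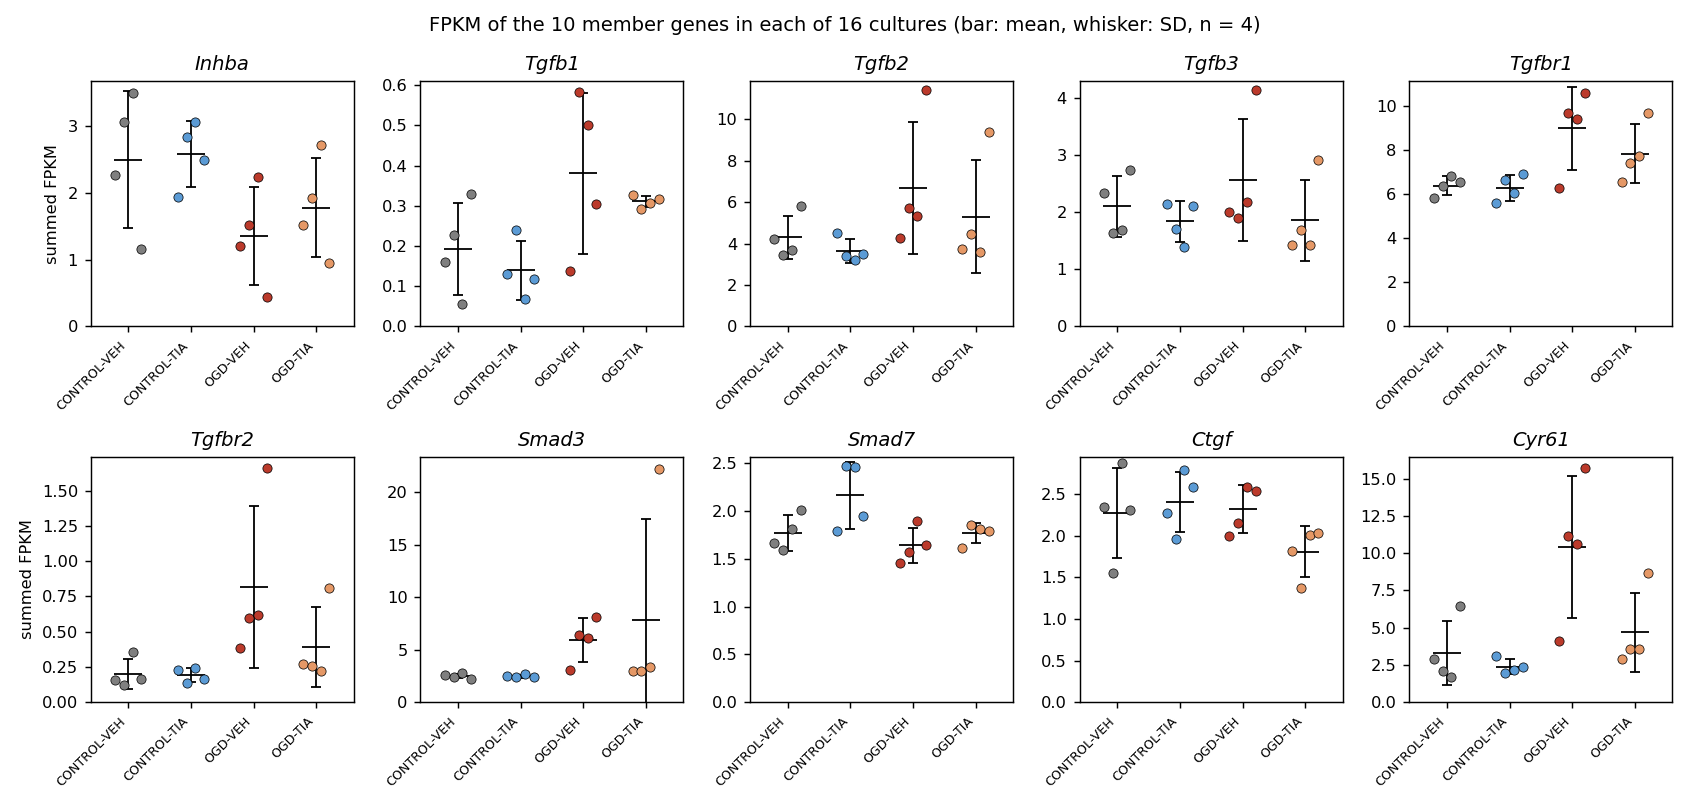
Summed FPKM (y axis, from 0) of the 10 member genes in the 4 groups (x axis). Each point is 1 culture, the points of a group standing in the order of their culture numbers, and the bar and whiskers are mean and SD (n = 4). The lower whisker of Smad3 in OGD-TIA passes below 0 and is not drawn in full. The 8 OGD cultures lay above all 8 CONTROL cultures for Smad3, and culture 16 was at 22.2 FPKM there.

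In CONTROL-VEH, Tgfbr1 was the most abundant member at 6.40 ± 0.427 FPKM (SD, n = 4), followed by Tgfb2 at 4.31 ± 1.05 FPKM. Cyr61 (3.29 ± 2.17), Inhba (2.50 ± 1.03), Smad3 (2.50 ± 0.213), Ctgf (2.27 ± 0.543), Tgfb3 (2.10 ± 0.532) and Smad7 (1.77 ± 0.185) followed, and each of these differed from its neighbour in the order by less than the larger of their SD. Tgfbr2 (0.200 ± 0.106 FPKM) and Tgfb1 (0.194 ± 0.114 FPKM) stood apart at the low end. Since FPKM is per transcript length, these levels can be set beside each other.

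The first comparison asked what OGD alone did to these genes. Smad3, the transducer that TGF-β and activin share, rose 2.19-fold in OGD-VEH and was the 1 member that passed the test. Cyr61 and Tgfbr2 had larger fold changes, with padj above the threshold. Inhba was at a lower mean level, and Ctgf and Smad7 were close to their CONTROL-VEH levels. A gene was called when its adjusted p (padj, limma with Benjamini-Hochberg over all genes tested) did not exceed 0.05 and its log2 fold change reached 1 in either direction. Of the 16376 genes tested, 668 were called (4.08%), and of the 9 members that passed the filter on low values 1 was called. At an unadjusted p under 0.05, 4 members were higher (Smad3, Cyr61, Tgfbr2 and Tgfbr1), where 20.2% of all genes tested were higher and 14.8% lower at that level, and no member was lower. Tgfbr2 entered this count only through OGD-VEH, since its mean was 0.814 FPKM there and 0.200 FPKM in CONTROL-VEH, under the filter. The median log2 fold change was 0.51 over the 10 members and 0.10 over all genes.

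Among the ligands, Inhba was at 2.27, 3.07, 3.49 and 1.16 FPKM in CONTROL-VEH cultures 1 to 4 and at 1.21, 1.53, 2.23 and 0.448 FPKM in OGD-VEH cultures 9 to 12. The groups overlapped through culture 4, the lowest control, and culture 12 had the lowest level of all 16 cultures. OGD-VEH differed by -0.91 on the log2 scale (SE 0.49, padj = 0.22), with a 95% interval from -2.04 to 0.22. Without culture 12 the Inhba difference was -0.50, and without culture 4 it was -1.22.

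Tgfb2, the most abundant TGF-β ligand here, was at 4.24, 3.47, 3.72 and 5.80 FPKM in CONTROL-VEH and at 4.27, 5.74, 5.34 and 11.4 FPKM in OGD-VEH. Culture 12 stood highest and the groups overlapped, with a log2 fold change of 0.55 (SE 0.31, padj = 0.234) that was 0.26 without culture 12. Tgfb3 was at 2.33, 1.64, 1.70 and 2.75 FPKM in CONTROL-VEH and at 2.01, 1.91, 2.19 and 4.15 FPKM in OGD-VEH. Without culture 12 the Tgfb3 difference was at -0.017 in place of 0.23 on the log2 scale. Tgfb1 was listed between 0.057 and 0.329 FPKM in CONTROL-VEH and between 0.138 and 0.584 FPKM in OGD-VEH, under the filter. Its log2 fold change, fitted without a filter, was 0.69 (SE 0.45, padj = 0.419), on few reads.

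Of the receptors, the type I receptor Tgfbr1 was at 5.82, 6.37, 6.83 and 6.55 FPKM in CONTROL-VEH and at 6.28, 9.70, 9.42 and 10.6 FPKM in OGD-VEH. Cultures 10, 11 and 12 lay above all controls, and culture 9 lay within them, with a log2 fold change of 0.46 (SE 0.18, padj = 0.108). The type II receptor Tgfbr2, which binds the ligand first, was at 0.154, 0.123, 0.357 and 0.167 FPKM in CONTROL-VEH and at 0.385, 0.594, 0.615 and 1.66 FPKM in OGD-VEH. Every OGD-VEH culture lay above every CONTROL-VEH culture. Tgfbr2 differed by a log2 fold change of 1.48 (SE 0.49, padj = 0.0755), which missed the threshold, and the exact two-sided permutation test over 70 assignments gave p = 0.0286, the smallest this design allows. Tgfbr2 reads were divided between a long isoform of 8092 bases, at 0.120 ± 0.0534 FPKM in CONTROL-VEH against 0.365 ± 0.180 FPKM with OGD (SD, n = 4), and a shorter one of 3476 bases that made up 1.38 of the 1.66 FPKM in culture 12.

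Smad3 was at 2.55, 2.43, 2.75 and 2.24 FPKM in CONTROL-VEH and at 3.05, 6.42, 6.09 and 8.08 FPKM in OGD-VEH. The controls differed little, and all 4 OGD-VEH cultures lay above them, culture 9 by the least. Smad3 was higher by a log2 fold change of 1.13 (SE 0.28, padj = 0.047). Smad3 and Tgfbr2 were the 2 members whose groups did not overlap, both higher in OGD-VEH, as was the case for 12.8% of all genes tested. Of these, Tgfbr2 passed the filter only through its OGD-VEH values. The Smad3 call was lost when any culture other than 9 was left out, with log2 fold changes of 0.96 to 1.42 over the 8 fits. Smad3 was called in 7 of all 18 settings run, and its padj ranged from 0.00252 to 0.126.

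Smad7, the inhibitory Smad that TGF-β itself induces, was at 1.67, 1.59, 1.81 and 2.01 FPKM in CONTROL-VEH and at 1.46, 1.57, 1.90 and 1.64 FPKM in OGD-VEH. The groups overlapped, with a 95% interval of the log2 fold change from -0.52 to 0.31 around -0.10.

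Of the 2 CCN targets neither was called, and the difference between them was not tested. Cyr61 was at 2.92, 2.07, 1.72 and 6.46 FPKM in CONTROL-VEH and at 4.12, 11.1, 10.6 and 15.7 FPKM in OGD-VEH. Culture 4 was higher than the other 3 controls and higher than OGD-VEH culture 9, so that the groups overlapped. The log2 fold change of Cyr61 was 1.67 (SE 0.50, padj = 0.0619), 3.19-fold, with a 95% interval from 0.54 to 2.80. It was 1.41 to 2.06 over 18 settings, in 4 of which Cyr61 was called, and padj ranged from 0.00335 to 0.144. Without culture 9, Smad3, Cyr61 and Tgfbr2 were all called.

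Ctgf was at 2.34, 1.56, 2.88 and 2.31 FPKM in CONTROL-VEH and at 2.001, 2.15, 2.59 and 2.54 FPKM in OGD-VEH. The OGD-VEH values lay within the range of the controls. For Ctgf the log2 fold change was 0.05 (SE 0.22, padj = 0.881), with a 95% interval from -0.45 to 0.55 that did not reach 1, and its sign turned under median-ratio scaling (-0.029). The ratio of Cyr61 to Ctgf FPKM was 1.25, 1.33, 0.599 and 2.80 in CONTROL-VEH cultures and 2.06, 5.17, 4.11 and 6.21 in OGD-VEH cultures, and the groups overlapped through culture 4.

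**Figure D2:**
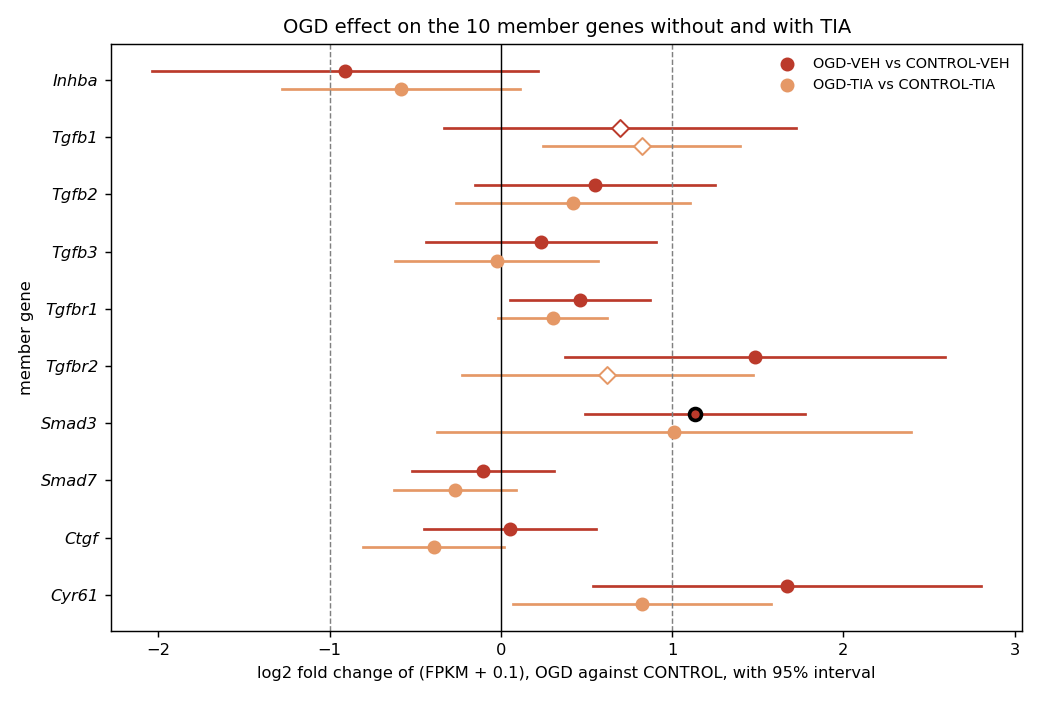
Log2 fold change of FPKM + 0.1 (x axis) of each member (y axis) between OGD and CONTROL, with vehicle (dark red) and with TIA (orange); lines are 95% intervals from limma and dashed lines mark -1 and 1. White diamonds are members under the filter on low values, and the black ring marks the called value, Smad3 at 1.13.

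The second comparison asked what OGD did in cultures pretreated with TIA. No member was called, and neither was any of the 16271 genes tested with limma (0.0%), of which 3177 had an unadjusted p under 0.05. Of the 8 members that passed the filter, 1 had an unadjusted p under 0.05, Cyr61, which was higher, as were 11.6% of all genes tested at that level. The groups did not overlap for 2 members, Smad3 and Tgfb1, both higher in OGD-TIA, as was the case for 9.5% of the genes that passed the filter, of which Tgfb1 was not one.

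Smad3 was at 2.46, 2.36, 2.68 and 2.43 FPKM in CONTROL-TIA and at 2.99, 3.01, 3.31 and 22.2 FPKM in OGD-TIA. All 4 OGD-TIA cultures lay above the controls, 3 of them close to each other and culture 16 far above. For Smad3 the log2 fold change was 1.01 (SE 0.60, padj = 0.382). In culture 16, 17.4 FPKM came from a single isoform of 466 bases, an estimated 150 reads, which was at 0.001 FPKM or less in the other 15 cultures. Without it Smad3 was at 4.82 FPKM in culture 16, and the group was at 3.53 ± 0.874 FPKM (SD, n = 4), against 2.48 ± 0.137 in CONTROL-TIA. Without culture 16 the log2 fold change was 0.31.

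Cyr61 was at 3.08, 1.94, 2.16 and 2.37 FPKM in CONTROL-TIA and at 2.91, 3.59, 3.56 and 8.65 FPKM in OGD-TIA. Culture 16 was the highest, and the groups overlapped through culture 13, with a log2 fold change of 0.82 (SE 0.33, padj = 0.23) that was 0.49 without culture 16.

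The type I receptor Tgfbr1 was at 5.61, 6.64, 6.04 and 6.91 FPKM in CONTROL-TIA and at 6.55, 7.43, 7.72 and 9.68 FPKM in OGD-TIA, with a log2 fold change of 0.30 (SE 0.14, padj = 0.271) that was 0.20 without culture 16. Culture 13 lay within the controls. Tgfbr2 was at 0.227, 0.134, 0.240 and 0.164 FPKM in CONTROL-TIA and at 0.274, 0.254, 0.219 and 0.813 FPKM in OGD-TIA, under the filter. Of its 4 OGD-TIA cultures, 3 were close to the controls and culture 16 was above them.

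Among the ligands, Inhba was at 1.93, 2.83, 3.07 and 2.49 FPKM in CONTROL-TIA and at 1.52, 1.92, 2.72 and 0.952 FPKM in OGD-TIA, with a log2 fold change of -0.58 (SE 0.30, padj = 0.319). The groups overlapped, and culture 16 was the lowest. Tgfb2 was at 3.20 to 4.53 FPKM in CONTROL-TIA and at 3.77, 4.46, 3.61 and 9.38 FPKM in OGD-TIA, with a log2 fold change of 0.42 (SE 0.30, padj = 0.451). Without culture 16 it was 0.11 for Tgfb2 and -0.34 for Inhba. Tgfb3 was at 1.40 to 2.14 FPKM in CONTROL-TIA and at 1.42, 1.69, 1.43 and 2.91 FPKM in OGD-TIA, with culture 16 again the highest. Tgfb1 was at 0.131, 0.241, 0.068 and 0.119 FPKM in CONTROL-TIA and at 0.326, 0.293, 0.308 and 0.316 FPKM in OGD-TIA. Its log2 fold change, fitted without a filter, was 0.82 (SE 0.25, padj = 0.263). The main isoform of Tgfb1 alone, at 0.131, 0.150, 0.068 and 0.119 against 0.312, 0.119, 0.106 and 0.316 FPKM, overlapped between the groups.

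Smad7 was at 1.79, 2.47, 2.46 and 1.95 FPKM in CONTROL-TIA and at 1.61, 1.86, 1.81 and 1.80 FPKM in OGD-TIA, a log2 fold change of -0.27 (padj = 0.37). Ctgf was at 2.27, 1.96, 2.79 and 2.59 FPKM in CONTROL-TIA and at 1.82, 1.38, 2.01 and 2.03 FPKM in OGD-TIA. The log2 fold change of Ctgf was -0.39 (SE 0.18, padj = 0.27), and the groups overlapped.

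The third comparison asked whether the response of the members to OGD differed with TIA. The interaction is the log2 effect of OGD in the TIA arm less the same effect in the vehicle arm, fitted over all 16 cultures. It was called for no member and for none of 16343 genes (0.0%), of which 990 (6.06%) had an unadjusted p under 0.05 in limma. No member had an unadjusted p under 0.05 in it. The interaction of Cyr61 was -0.85 on the log2 scale (SE 0.64, padj = 0.728), with a 95% interval from -2.21 to 0.51. That of Tgfbr2, fitted without a filter, was -0.86 (SE 0.59, padj = 0.792), and that of Smad3 was -0.12 with a 95% interval from -1.64 to 1.39. These intervals are wide, so that a difference between the arms could not be told from none at this number of cultures.

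In the direct comparison of OGD-TIA with OGD-VEH, no member and none of 16381 genes was called (0.0%), and 1294 genes had an unadjusted p under 0.05 in limma. Of the 9 members that passed the filter, Cyr61 alone had an unadjusted p under 0.05, lower as were 5.04% of all genes tested, with 4.68 ± 2.67 FPKM in OGD-TIA against 10.4 ± 4.78 FPKM in OGD-VEH (SD, n = 4) and a log2 fold change of -1.13 (SE 0.47, padj = 0.551). Over 18 settings its padj ranged from 0.0454 to 0.869, and it was called in 1, with array quality weights. The log2 difference was -0.87 for Tgfbr2 (SE 0.51, padj = 0.551) and -0.35 for Ctgf (SE 0.19, padj = 0.551). The OGD-VEH cultures enter both this comparison and the first, so the 2 sets of values are not independent.

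Without OGD, no member and none of 16196 genes was called between CONTROL-TIA and CONTROL-VEH (0.0%), and 622 genes (3.84%) but no member had an unadjusted p under 0.05 in limma. The largest differences on the log2 scale were -0.28 for Cyr61 (95% interval from -1.15 to 0.60) and 0.27 for Smad7 (95% interval from -0.09 to 0.63). The Smad7 difference was 0.036 with its highest isoform alone. An isoform of 392 bases, which that value leaves out, was listed above 0 in cultures 6 and 7 only, at 0.567 and 0.789 FPKM. Smad3 was at 2.50 ± 0.213 and 2.48 ± 0.137 FPKM (SD, n = 4) in the 2 groups, with a 95% interval of the log2 fold change from -0.27 to 0.26.

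A fit of the 8 OGD against the 8 CONTROL cultures with TIA as a covariate was added after the values had been seen. In it Cyr61 and Smad3 were called, among 779 of 16343 genes (4.77%). Cyr61 differed by a log2 fold change of 1.25 (SE 0.33, padj = 0.0117) and Smad3 by 1.07 (SE 0.34, padj = 0.0276). Cyr61 was called in all 25 settings of this fit, with padj from 0.0049 to 0.0264, and Smad3 in 17 of 25, with padj from 0.00385 to 0.0555. Without culture 16 the Smad3 log2 fold change was 0.75, under the fold threshold, and with the highest isoform alone it was 0.80. Smad3 was also not called without culture 10 or without culture 12. Tgfbr1 was at 8.42 against 6.35 FPKM on average, with a log2 fold change of 0.38 (SE 0.11, padj = 0.0176), under the fold threshold. Tgfbr2, under the filter, was called when fitted without one, with a log2 fold change of 1.05 (SE 0.31, padj = 0.0362). Inhba was at 1.57 against 2.54 FPKM, with a log2 fold change of -0.75 (SE 0.30, padj = 0.066). Smad3 was the 1 member for which all 8 OGD cultures lay above all 8 CONTROL cultures, as was the case for 3.22% of all genes tested.

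A further 130 genes of the pathway, in 8 lists, were read in the same fits. The lists were written from general knowledge but with earlier results of these data known, so their shares of calls are descriptions. In OGD-VEH against CONTROL-VEH, 93 of them passed the filter and 16 were called (17.2%, against 4.08% of all genes), 13 higher and 3 lower, where 2.4% of all genes were called higher and 1.68% lower. Of the 16, Hmga2 and Spp1 had CONTROL-VEH means of 0.217 and 0.212 FPKM and passed the filter at 0.5 FPKM only through OGD-VEH. Lefty2, at 0.481 FPKM in OGD-VEH, passed it only through CONTROL-VEH. With culture 9 left out 38 genes of the lists were called, and with any other of the 8 cultures left out between 0 and 3. The count was 30 with array quality weights, 1 with no filter and 0 with the highest isoform alone. In the fit over both arms 18 of 93 were called (19.4%, against 4.77% of all genes), and 16 to 22 with 1 culture left out. With TIA, in OGD-TIA against CONTROL-TIA, 0 of 92 were called in limma, and 32 had an unadjusted p under 0.05 (34.8%, against 19.5% of all genes). In that comparison array quality weights gave 4 calls (Fst, Hmga2, Id1 and Ltbp1), isoforms weighted by length 3 (Id1, Id3 and Ltbp1), and leaving out culture 16 gave 2 (Fst and Ltbp1).

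The median log2 fold change was -0.14 in the ligand list, 0.19 for receptors, 0.05 for Smads, -0.02 for inhibitors and 0.25 for matricellular genes, against 0.10 for all genes. Among 14 other ligands that passed the filter, 1 was called, where 4.08% of all genes were called. At an unadjusted p under 0.05 in limma, 2 of these ligands were higher and 4 lower, against 20.2% and 14.8% of all genes. The called one, Lefty2, an antagonist of Nodal, fell from 1.66 ± 0.885 to 0.481 ± 0.155 FPKM (log2 fold change -1.51, padj = 0.0485). Lefty2 passed the filter through CONTROL-VEH alone. None of 8 receptors and co-receptors and none of 5 other Smads was called in limma. At an unadjusted p under 0.05, 2 receptors were lower and none higher, where 14.8% of all genes were lower. At that level 2 Smads were higher and none lower, where 20.2% of all genes were higher. Of 18 inhibitors 2 were called, in opposite directions, where 4.08% of all genes were called. Fst, encoding follistatin, which binds and neutralises activin, fell from 6.50 ± 1.60 to 1.36 ± 0.736 FPKM (log2 fold change -2.29, padj = 0.0335). Tgif1, a nuclear co-repressor of Smad2 and Smad3, rose from 1.54 ± 0.493 to 10.3 ± 5.76 FPKM (log2 fold change 2.48, padj = 0.0347). Fst and its ligand gene Inhba were thus both at lower mean levels after OGD, of which only the Fst difference passed the test.

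Of 11 latency and activation genes of TGF-β, 3 were called higher and none lower, against 2.4% and 1.68% of all genes. Others had negative log2 fold changes, such as Furin at -0.85, and were not called. The list median log2 fold change was 0.10, as over all genes. Ltbp1, which tethers latent TGF-β to the matrix, rose from 0.645 ± 0.369 to 5.91 ± 2.80 FPKM (log2 fold change 2.97, padj = 0.0335). The αv and β8 integrin genes Itgav and Itgb8, whose products pair to release active TGF-β, rose with log2 fold changes of 1.82 (padj = 0.0479) and 1.16 (padj = 0.048). In the fit over both arms Ltbp1 was at 2.50 (SE 0.34, padj = 0.000987) on the log2 scale, and Itgb8 at 0.90 was under the fold threshold.

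Of 14 further transcriptional targets, 4 were called higher and none lower, against 2.4% and 1.68% of all genes. At an unadjusted p under 0.05 in limma, 6 were higher and 1, Pdgfb, was lower, against 20.2% and 14.8% of all genes. The list median log2 fold change was 0.72, against 0.10 for all genes. In OGD-TIA against CONTROL-TIA that median was 0.08. Hmga2, a chromatin protein gene, rose from 0.217 ± 0.111 to 2.86 ± 1.51 FPKM (log2 fold change 3.11, padj = 0.0335) and passed the filter through OGD-VEH alone. Id1 and Id3, inhibitors of helix-loop-helix factors that BMP signals also induce, rose with log2 fold changes of 1.89 (padj = 0.0282) and 1.57 (padj = 0.0267), and Cdkn2b, a cell cycle inhibitor gene, with 1.54 (padj = 0.0437). Of 6 other matricellular genes, Spp1 (osteopontin) rose from 0.212 ± 0.143 to 1.34 ± 0.377 FPKM and passed the filter through OGD-VEH alone. Nov, the CCN gene most abundant here, fell from 44.8 ± 1.72 to 21.8 ± 8.06 FPKM (log2 fold change -1.11, padj = 0.0374). The 3 CCN genes Cyr61, Ctgf and Nov thus stood at log2 fold changes of 1.67, 0.05 and -1.11.

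In the YAP-TEAD and SRF list, 4 of 18 genes were called higher and none lower, against 2.4% and 1.68% of all genes. At an unadjusted p under 0.05 in limma, 10 were higher and 1 lower, against 20.2% and 14.8% of all genes. The list median log2 fold change was 0.92. Myof rose by 2.50, Ajuba by 1.71, Ptpn14 by 1.55 and Nuak2 by 1.17 on the log2 scale, with padj of 0.0347, 0.034, 0.0447 and 0.042. Ajuba and Ptpn14 encode regulators of YAP. In OGD-TIA against CONTROL-TIA the list median was 0.52 against 0.04 for all genes. The interaction of Hmga2 was -1.65 (SE 0.61, padj = 0.723), and those of the other 15 genes called were also not past the threshold.

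**Figure D3:**
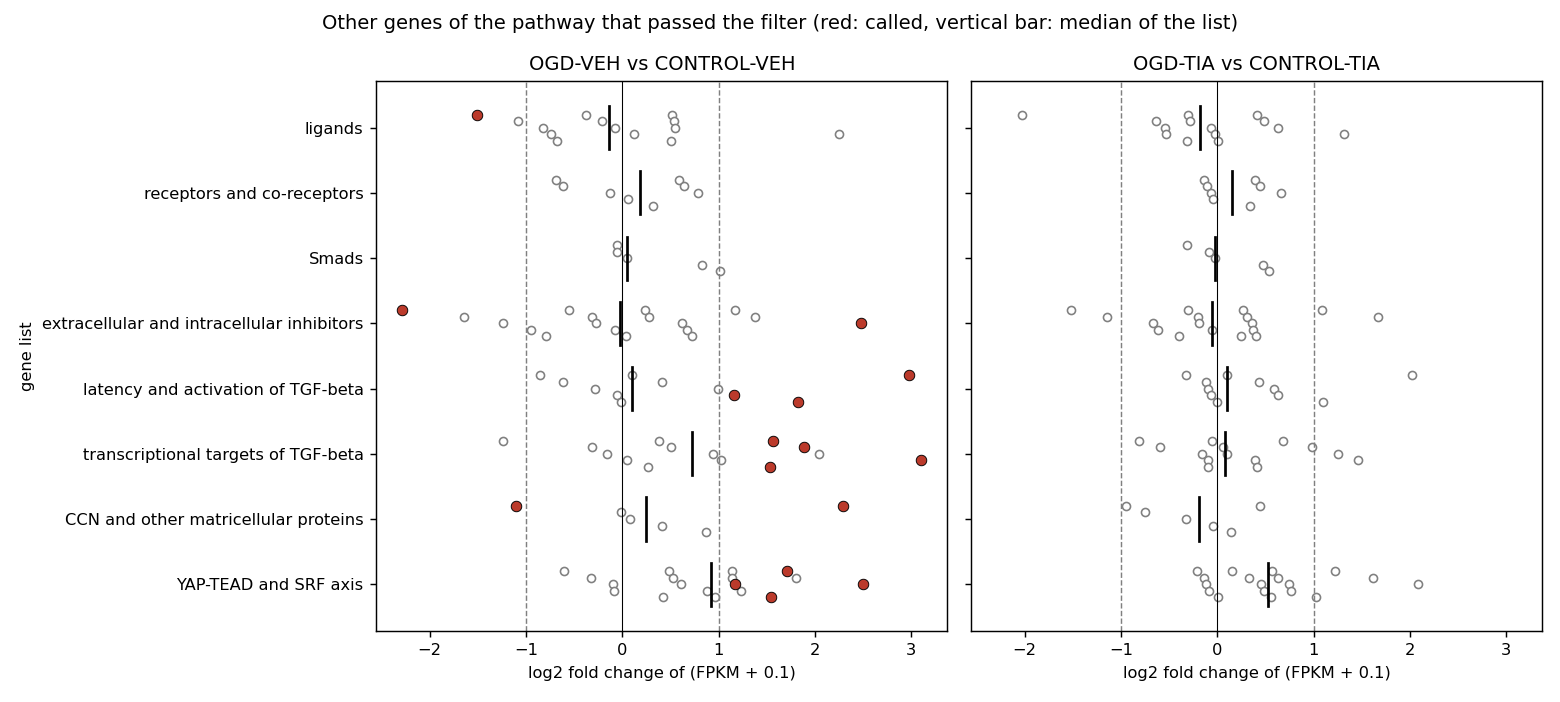
Log2 fold change of FPKM + 0.1 (x axis) of the other pathway genes that passed the filter, by list (y axis), without TIA (left) and with TIA (right). Red points were called, white points were not, and the vertical bar is the median of each list; called genes stand at both ends of the inhibitor list, at -2.29 and 2.48.

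Summed levels of marker genes of the cell types that such cultures can hold were read beside the members. Summed neuron markers (9 genes) were 2125 to 2786 FPKM in CONTROL-VEH, 2209 to 2390 in CONTROL-TIA, 1060 to 1977 in OGD-VEH and 1371 to 2243 in OGD-TIA. Summed astrocyte markers (7 genes) were 466 to 734 FPKM in CONTROL-VEH, 399 to 477 in CONTROL-TIA, 635 to 1672 in OGD-VEH and 482 to 1217 in OGD-TIA. Oligodendrocyte lineage markers (6 genes) were 171 to 206 FPKM in CONTROL-VEH and 232 to 637 in OGD-VEH, with 152 to 189 and 216 to 412 in the 2 TIA groups. Progenitor markers (6 genes) were 90.8 to 129 FPKM in CONTROL-VEH and 125 to 366 in OGD-VEH, with 87.2 to 102 and 108 to 260 in the 2 TIA groups.

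Culture 12 had the lowest neuron sum and the highest astrocyte, oligodendrocyte lineage and progenitor sums of all cultures, and it was also the highest culture for Cyr61, Tgfbr1, Tgfbr2, Tgfb2 and Tgfb3 and the lowest for Inhba. Culture 16 held the same place within OGD-TIA for these sums and genes, and culture 9 was nearest to the controls in OGD-VEH for the 4 sums. For Smad3 without the isoform of 466 bases, culture 12 was the highest of all cultures at 8.08 FPKM. In that reading of Smad3, culture 16 was the highest in OGD-TIA (4.82 FPKM) and culture 9 the lowest in OGD-VEH (3.05 FPKM). Among the controls, culture 4 had the highest neuron, astrocyte and progenitor sums and the highest Cyr61, Tgfb2 and Tgfb3, and the lowest Inhba. Between OGD-VEH and CONTROL-VEH, 0 of 7 astrocyte genes were called in limma. Called higher were 3 of 6 oligodendrocyte lineage genes (Olig1, Olig2 and Cspg4) and 1 of 6 progenitor genes (Nes), against 2.4% of all genes. Of 9 neuron genes 1 (Syt1) was called lower, against 1.68% of all genes. At an unadjusted p under 0.05 in limma, 3 astrocyte, 4 oligodendrocyte lineage and 3 progenitor genes were higher, against 20.2% of all genes. At that level 6 neuron genes and 1 oligodendrocyte lineage gene were lower, against 14.8% of all genes. The part of these cells in the member values was not tested. In such bulk samples fewer cells of a type and less RNA per cell cannot be told apart.

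Microglia, endothelial, and mural and fibroblast markers shared the order of the cultures seen for the other lists only in part. In OGD-VEH, microglia sums fell from culture 9 (1.19 FPKM) to culture 12 (0.670 FPKM), as the neuron sums did. Endothelial sums, and mural and fibroblast sums, were highest there in culture 12. In OGD-TIA, culture 16 had the lowest microglia sum (0.566 FPKM). The endothelial sum was highest there in culture 15, and the mural and fibroblast sum in culture 13. The sums of these lists in OGD-VEH were at most 1.19, 0.528 and 17.3 FPKM, against at most 1.97, 0.698 and 21.4 FPKM in CONTROL-VEH. Between OGD-VEH and CONTROL-VEH, only 1 of 6 microglia, 0 of 5 endothelial and 3 of 8 mural and fibroblast genes passed the filter, so most could not be called. Of these lists 1 gene was called higher, Cspg4, which the oligodendrocyte lineage list also holds, where 2.4% of all genes were called higher. The highest level over all cultures was 2.76 FPKM for the microglia marker Aif1 and 0.544 FPKM for the endothelial marker Pecam1.

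**Figure D4:**
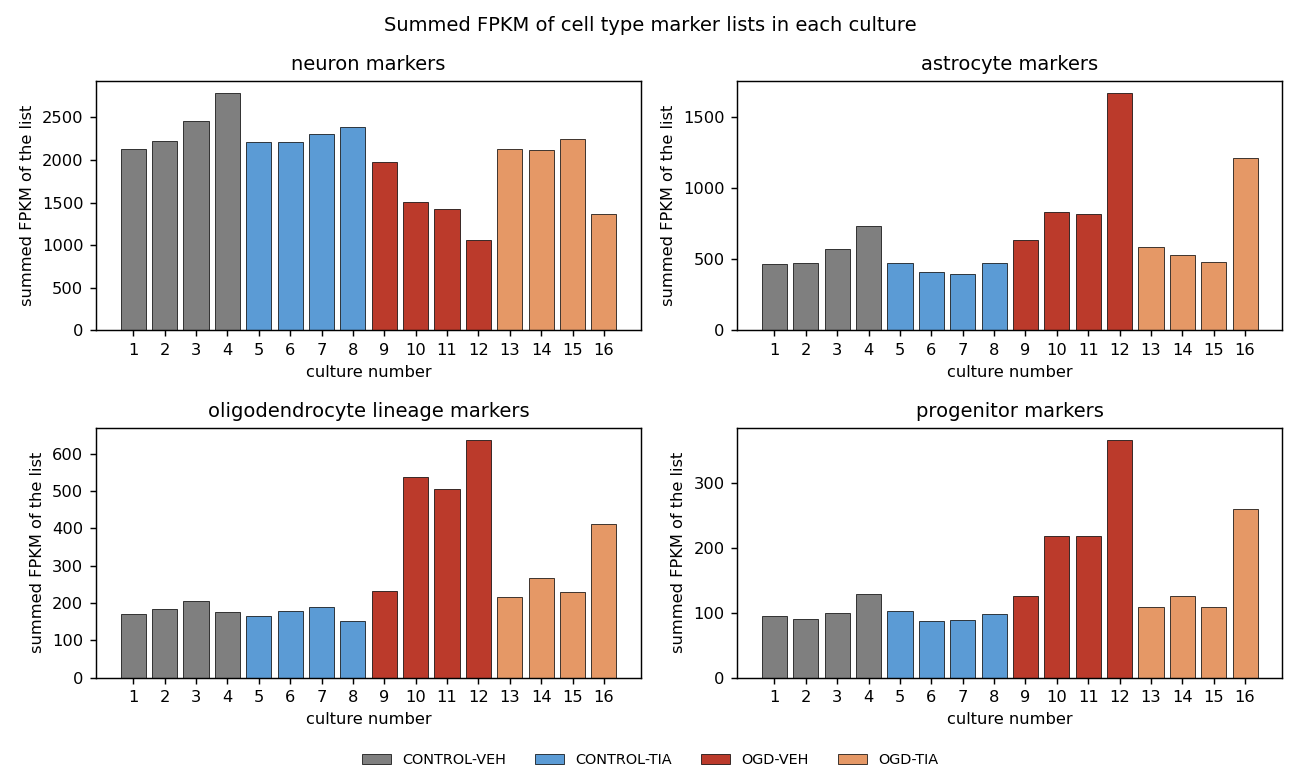
Summed FPKM (y axis, from 0) of 4 marker lists in each of the 16 cultures (x axis, culture number), coloured by group. Neuron markers were lowest in cultures 12 (1060 FPKM) and 16 (1371 FPKM), where astrocyte markers were highest (1672 and 1217 FPKM).

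For the 3 members with the largest log2 fold change after OGD, the genes with the most similar course over the 16 cultures were found among the 13069 genes that averaged 2 FPKM or more. Likeness was the root mean square difference of log2(FPKM + 0.1), each gene centred on its mean over the cultures. The nearest genes to Cyr61 were Sp8 (0.22), Sdc4 (0.24) and Gpx8 (0.28), where the root mean square of Cyr61 itself was 0.95. To Tgfbr2 they were Ttyh2 (0.26), Gab1 (0.26) and Pros1 (0.27), against 0.80 for Tgfbr2, and to Smad3 they were Acads (0.29), Spg20 (0.29) and Wipf1 (0.34), against 0.85. The Smad3 neighbours rest on the isoform of 466 bases in culture 16. Without it, a variation added after seeing the data, the nearest genes included Fam181b (0.12) and Susd6 (0.12), against 0.55 for Smad3. Sdc4, a cell surface proteoglycan gene, was at means of 5.85 FPKM (CONTROL-VEH) and 17.6 FPKM (OGD-VEH), and Sp8, a transcription factor gene, at 9.68 and 29.7 FPKM. The cultures share their libraries, so these are descriptions over 16 points.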

How the data were processed

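RNA of 16 cultures was sequenced by the authors' provider as stranded mRNA libraries with 50-base single-end reads, mapped with STAR to GRCm38 (Ensembl 92 annotation) and estimated per isoform with eXpress. The deposited values are FPKM per isoform, and the name of the deposited table calls them TMM-scaled. Of 135276 lines, 74 without an identifier were left out, leaving 135202 isoforms, of which 99.82% were found in GENCODE M21. Gene identifiers and isoform lengths came from GENCODE, and gene symbols were those deposited with the values. Deposited read counts were not used here, so the authors' DESeq2 test, which needs counts, was not run. Depth was estimated from the values of 13861 single-isoform genes, in a window from 15 to 35 M reads. Since eXpress assigns reads to isoforms by probability, it is approximate and no counting intervals were given.

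Isoform FPKM were summed per gene and tested as log2(FPKM + 0.1) with limma 3.58.1 in R 4.3.3 (two-sided, empirical Bayes with a trend), so fold changes of low genes are understated. Genes needed a mean of at least 0.5 FPKM over the cultures of a fit. Members under it were read from a fit without a filter. The method was tested on simulated data. Tables and figures were made with Python 3.11.15, numpy 2.4.6, pandas 2.3.3 and matplotlib 3.10.9. Alternatives were array quality weights, a pseudocount of 1 or 0.01, median-ratio scaling, no filter, a filter at 2 FPKM, isoforms weighted by length, all 16 cultures in one fit, and each culture left out. The highest isoform alone and the fit over both arms were chosen after seeing the data.

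Named were all 10 members, up to 4 called genes of each list by the size of their log2 fold change in OGD-VEH, and the 3 genes most like each of the 3 members with the largest log2 fold change. The members and lists were chosen with earlier results of these data known. Whether replicates came from separate preparations is not given in the sources used here beyond the words biological replicates.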

Additional observations from a re-analysis of the deposited data

Results flagged for a closer look

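In 5 of the 40 groups of 4 cultures (10 members in 4 groups), 1 culture lay far from the other 3, its distance to the nearest, as a share of the range of the group, being above Dixon's 95% critical value, which chance gives in about 1 in 20 groups. The 10 members are read from the same cultures, so these are not independent. In OGD-TIA culture 16 was the highest for Smad3 (22.2 FPKM, the others at most 3.31), Cyr61 (8.65 FPKM, the others at most 3.59), Tgfb2 (9.38 FPKM, the others at most 4.46) and Tgfbr2 (0.813 FPKM, the others at most 0.274). In OGD-VEH culture 12 was the highest for Tgfb3 (4.15 FPKM, the others at most 2.19). The Smad3 value of culture 16 includes 17.4 FPKM of an isoform of 466 bases, without which it was 4.82 FPKM.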

How the results depend on the processing

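No paired analysis was run, because the cultures are numbered 1 to 16 across the groups and the labels name no pairs. Levels did follow the order within groups for Inhba. It was highest in cultures 3, 7, 11 and 15 of their groups and lowest in cultures 4, 5, 12 and 16. Whether cultures at the same place share a preparation is not given and was not tested, and the fits take no account of it. With 4 cultures a group, padj in OGD-VEH against CONTROL-VEH lay close to its threshold for many genes, and counts moved widely. In that comparison 668 genes and 1 member were called. No filter gave 36 genes and 0 members, a pseudocount of 1 gave 0 members, array quality weights 1931 genes and 3 members, isoforms weighted by length 1022 and 2, all 16 cultures in one fit 1393 genes and 1 member (Cyr61, padj = 0.0168, in place of Smad3, padj = 0.1), and the highest isoform alone 19 genes and 0 members. Leaving out 1 culture gave 1 to 2189 genes and 0 to 3 members. The highest count was without culture 9; without culture 12 it was 71, without culture 4 it was 18, and without any of the others at most 8. In OGD-TIA against CONTROL-TIA, where 0 genes were called, no filter gave 7, array quality weights 80, isoforms weighted by length 46, all 16 cultures in one fit 1, the highest isoform alone 3, and leaving out 1 culture 0 to 17 (17 without culture 16), with 0 members in each. Between OGD-TIA and OGD-VEH, no filter gave 4 genes, array quality weights 407 genes and 1 member (Cyr61), the highest isoform alone 3, and leaving out 1 culture 0 to 2. Between the 2 CONTROL groups no filter gave 4 and the highest isoform alone 3, and leaving out 1 culture 0. For the interaction no filter gave 3 and leaving out 1 culture 0 to 1. Over both arms, with 779 genes and 2 members, a pseudocount of 1 gave 393 genes and 1 member, and array quality weights, isoforms weighted by length and the highest isoform alone 1 member each. Leaving out 1 culture gave 525 to 1059 genes and 1 to 2 members there. The cause of these moves was not tested.

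Differences that changed sign were small. Ctgf in OGD-VEH against CONTROL-VEH was -0.029 under median-ratio scaling and -0.11 to 0.17 with 1 culture left out, and Tgfb3 was -0.017 to 0.37. Tgfb3 was -0.25 to 0.077 in OGD-TIA against CONTROL-TIA, and over both arms -0.021 to 0.16 with 1 culture left out and -0.008 with array quality weights. Between the CONTROL groups Smad3 was 0.005 under median-ratio scaling and Inhba -0.024 with array quality weights. With 1 culture left out, Smad3 was -0.053 to 0.041, Ctgf -0.064 to 0.22, Tgfbr1 -0.069 to 0.029, Inhba -0.18 to 0.32 and Cyr61 -0.51 to 0.10. Between OGD-TIA and OGD-VEH Smad3 was -0.83 to 0.12 with 1 culture left out. The interaction of Smad7 was 0.057 with isoforms weighted by length and 0.10 with the highest isoform alone, and with 1 culture left out that of Inhba was -0.084 to 0.64, of Tgfb2 -0.44 to 0.16 and of Smad3 -0.82 to 0.13. The cause was not tested. Depth limits the values of Tgfb1 and Tgfbr2.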

Other observations

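Among the genes of the pathway lists that were called in the fit over both arms and not in OGD-VEH against CONTROL-VEH, 4 are given here. They lie outside the rule for named genes and were chosen after their values were seen. Gdf15, a stress-induced ligand gene of the TGF-β superfamily, was higher by 1.78 on the log2 scale (padj = 0.0077), with 2.25 in the vehicle arm and 1.31 in the TIA arm. Tead2, encoding a DNA-binding partner of YAP, was higher by 1.95 (padj = 0.00324), with 1.81 and 2.09 in the 2 arms. Tgif2, a co-repressor gene related to Tgif1, was higher by 1.23 (padj = 0.00546). Pdgfb, a growth factor gene, was lower, with a log2 fold change of -1.03 (padj = 0.0261).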
